A study of Mus musculus with 8 samples.

Results

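The plasminogen activators, matrix metalloproteinases and their inhibitors were followed here through 9 genes, Plau, Plaur, Plat, Serpine2, Mmp7, Mmp14, Timp1, Timp2 and Timp3, chosen by symbol as secreted proteases and inhibitors of the senescence secretome. All 9 were among the 25240 symbols of the deposited table, and all 9 passed the filter on low counts that left 14284 tested genes. Kidney cells of p16-tdTomato mice were sequenced as 4 Tomato-positive and 4 Tomato-negative libraries. The name refers to p16, the senescence-associated inhibitor of the cell cycle encoded by Cdkn2a, and to a red fluorescent protein. All 8 libraries shared this genotype and a chronic kidney disease (CKD) brought about by feeding adenine, and no library of mice without the disease was analysed here. The sources used here do not give the reporter's construction, the sorting of the cells or the strain and age of the mice. Every library is labelled as proximal tubular epithelial cell. Each identifier in the titles (CKD627_1, CKD627_2, CKD523_2 and CKD523_3) belonged to 1 Tomato-positive and 1 Tomato-negative library, called a pair here.

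Plasmin, a broad serine protease that dissolves fibrin and other matrix, is cut from plasminogen by urokinase (Plau) or by tissue-type plasminogen activator (Plat). Urokinase acts largely while bound to its receptor on the cell surface (Plaur), and serpins such as protease nexin-1 (Serpine2) trap both activators. Matrix metalloproteinases cut collagens, other matrix proteins and cell surface proteins, and the tissue inhibitors of metalloproteinases (Timp genes) bind them. Senescent cells in culture are known to secrete members of all these families.

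Libraries held 13474439 to 19886202 counts in total. Levels are given as CPM, a gene's counts scaled to its library's total, and 1 CPM was worth 13.5 to 19.9 counts. The reporter tdTomato averaged 3751 ± 443 CPM in Tomato-positive and 111 ± 36.5 CPM in Tomato-negative libraries (SD, n = 4 each), while Cdkn2a averaged 1.19 ± 1.15 and 1.10 ± 1.02 CPM. The libraries also differed by the prefix of their titles, CKD627 or CKD523, whose meaning the labels do not give. None of the listed cell type markers was at 0 in all 8 libraries. The 12 proximal tubule markers summed to 4077 to 10503 CPM in Tomato-positive and 6298 to 23541 CPM in Tomato-negative libraries. Markers of other segments were high as well, among them Umod of the loop of Henle, at 3205 ± 2156 CPM in Tomato-positive and 7095 ± 4816 CPM in Tomato-negative libraries.

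The unpaired fit compared the Tomato groups with edgeR's quasi-likelihood test over all 14284 genes, and the paired fit added the identifier as a block. A gene was called at a Benjamini-Hochberg adjusted p below 0.05. Standard errors (SE) and 95% intervals of log2 differences come from the same fits.

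Promoter letters are shown for Plaur and Mmp7, since both held the recognition letters of the transcription factor AP-1 and their levels differed between the prefixes in opposite directions. Each run gives the 250 bases before the RefSeq start site on GRCm38.p6, plus strand, 5′ to 3′, with capitals for matches to TGANTCA (AP-1), TATAAA (the TATA box) and GGGCGG (Sp1).
Plaur, chr7:24462233-24462482: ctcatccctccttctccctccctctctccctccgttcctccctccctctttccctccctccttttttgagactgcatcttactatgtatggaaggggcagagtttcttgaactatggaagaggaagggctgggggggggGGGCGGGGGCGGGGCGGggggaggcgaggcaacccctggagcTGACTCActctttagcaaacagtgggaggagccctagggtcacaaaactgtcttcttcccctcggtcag
Mmp7, chr9:7691840-7692089: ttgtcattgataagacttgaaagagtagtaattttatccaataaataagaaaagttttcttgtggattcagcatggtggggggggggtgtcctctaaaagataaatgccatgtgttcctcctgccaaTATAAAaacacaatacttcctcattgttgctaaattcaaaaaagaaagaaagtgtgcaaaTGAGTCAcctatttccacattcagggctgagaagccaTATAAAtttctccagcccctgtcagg

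The AP-1 letters began 69 bases before the start site in Plaur and 63 bases before it in Mmp7, which also held TATAAA beginning 26 bases before the start. The table held another start window for Mmp7, without a match. Over 32536 distinct RefSeq windows of this length, read on both strands, TGANTCA occurred in 6.73%, TATAAA in 12.3% and GGGCGG in 33.0%. The table held windows for 7 of the 9 genes, not those of Plau and Plat. GGGCGG occurred in the windows of Serpine2, Mmp14, Timp1, Timp2, Timp3 and Plaur, and neighbouring matches shared a base in Plaur and in Serpine2. These matches describe letters in a window and show no binding.

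Per length of merged exons (RPKM), Plau and Timp3 were the most abundant of the 9 transcripts in both groups. In Tomato-positive libraries Plau averaged 197 ± 15.6 and Timp3 172 ± 43.6 RPKM, with overlapping ranges, followed by Timp2 (46.9 ± 8.18), Plaur (44.9 ± 31.1), Mmp7 (34.0 ± 10.1), Plat (30.1 ± 9.45) and Mmp14 (20.2 ± 8.80). In Tomato-negative libraries the order by mean was Plau (345 ± 82.5), Timp3 (193 ± 110), Mmp7 (87.4 ± 87.8), Timp2 (29.0 ± 5.21), Plat (25.4 ± 12.8), Plaur (22.1 ± 8.55) and Mmp14 (17.0 ± 11.5 RPKM, SD, n = 4 per group). Timp1 (11.5 ± 3.87 and 11.3 ± 5.65 RPKM in Tomato-positive and Tomato-negative libraries) and Serpine2 (4.68 ± 2.77 and 4.20 ± 2.65 RPKM) were lowest in both groups. Ranges of neighbours in these orders overlapped, except that every Timp3 value lay above every Timp2 value in Tomato-positive libraries.

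**Figure D1:**
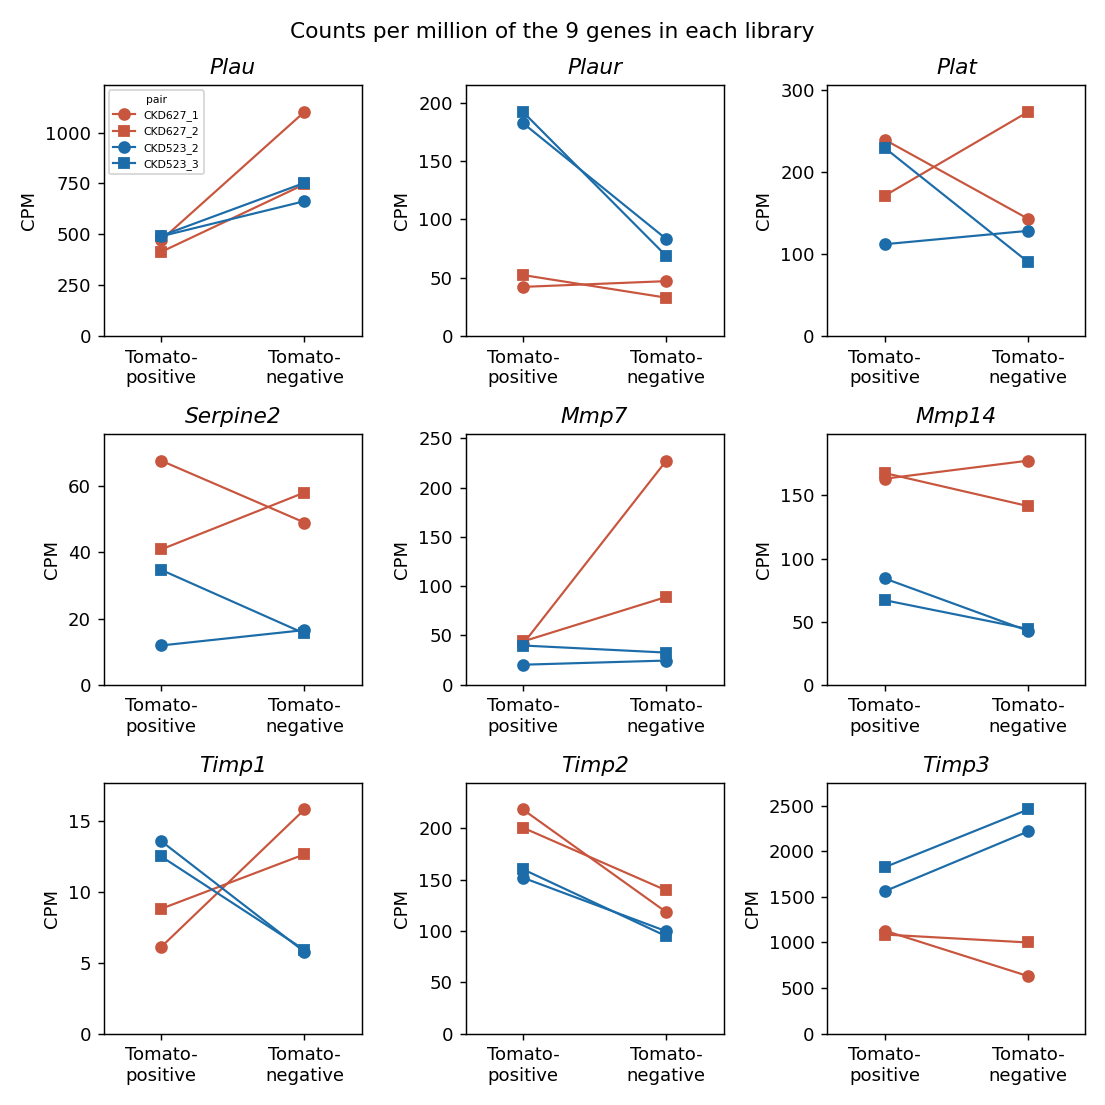
CPM (linear axis from 0, 1 panel per gene) of the 9 genes in Tomato-positive (left) and Tomato-negative (right) libraries, with a line joining the libraries of 1 pair and colour marking the prefix. Plau was lower and Timp2 higher in the Tomato-positive library of all 4 pairs, while Timp1 and Timp3 ran in opposite directions in the 2 prefixes.

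Plau, which encodes urokinase (mm10, chromosome 14, 20836660 to 20843385, plus strand), was lower in Tomato-positive cells. The Tomato-positive libraries CKD627_1, CKD627_2, CKD523_2 and CKD523_3 held 471, 413, 490.2 and 492 CPM of Plau, and their Tomato-negative partners held 1102, 746, 663 and 753 CPM. The groups did not overlap, and the Tomato-positive level was 0.427, 0.554, 0.740 and 0.654 times that of its partner in these pairs. In the paired fit the Plau level fell by 0.82 ± 0.16 on the log2 scale (SE, 95% interval -1.17 to -0.47, edgeR adjusted p = 0.0182). The unpaired estimate was alike (-0.83 ± 0.17) but did not pass (edgeR adjusted p = 0.0631).

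Timp2, an inhibitor that also joins Mmp14 and pro-MMP2 at the cell surface, was higher in Tomato-positive cells. Timp2 lies on chromosome 11 (118301069 to 118355740, minus strand), where Cep295nl overlaps it on the same strand with 0 shared exon bases and 32 counts over all libraries. All positions are on mm10, and all 9 genes are protein-coding in GENCODE M21. The Tomato-positive libraries, in the same order, held 218, 201, 152 and 160.1 CPM of Timp2 and their Tomato-negative partners 118, 139.5, 99.7 and 94.9 CPM. Again the groups did not overlap, and the ratios in the pairs were 1.85, 1.44, 1.52 and 1.69. The paired log2 difference was 0.65 ± 0.13 (SE, 95% interval 0.36 to 0.94, edgeR adjusted p = 0.0199), against 0.66 ± 0.14 in the unpaired fit (edgeR adjusted p = 0.0665).

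Plau and Timp2 were the 2 of 9 genes called in the paired fit, in which 7.62% of all tested genes were called (3.82% higher, 3.81% lower). In the unpaired fit 0 of 9 were called, against 0.595% of all genes, with 2 of 9 at an unadjusted p below 0.05 (17.8% of all genes). Unpaired DESeq2 called 2 (7% of all genes) and unpaired limma-voom 0 (0.644%). Both paired calls were lost without pair CKD523_3 (adjusted p = 0.0815 for Plau and 0.120 for Timp2) and without pair CKD627_2 (0.0827 and 0.0791), and Timp2's also without pair CKD523_2 (0.0687). Over these fits, in edgeR, the log2 differences stayed between -0.94 and -0.68 for Plau and between 0.59 and 0.69 for Timp2. Non-overlapping groups were seen for these 2 of the 9 genes and for 12.8% of all genes (7.13% higher, 5.69% lower in Tomato-positive libraries). A like direction in all 4 pairs was also seen for these 2 alone, and for 35.4% of all genes.

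Markers of several tubule segments moved between the same libraries. All 8 principal cell markers rose in the paired fit (summed 1018 to 5648 CPM in Tomato-positive and 217 to 2461 CPM in Tomato-negative libraries). Of 7 loop of Henle markers 5 fell (1803 to 7349 and 3934 to 15004 CPM), of 12 proximal tubule markers 4 fell, of 7 distal convoluted tubule markers 3 fell (386 to 1001 and 1183 to 2166 CPM), and of 7 intercalated cell markers 3 fell (183 to 944 and 224 to 2422 CPM). Of 10 markers of the injured proximal tubule 3 rose (19576 to 24629 and 16920 to 35907 CPM). None of 12 endothelial and none of 10 tested fibroblast and pericyte markers was called in the paired edgeR fit, with 0 and 4 of them at an unadjusted p below 0.05 (24.99% of all genes). Of 9 tested macrophage and leukocyte markers 2 rose (219 to 482 and 176 to 368 CPM), and of 7 podocyte markers 1 fell (80.9 to 509 and 192 to 707 CPM). In the unpaired fit 1 principal cell marker rose, 1 proximal tubule marker fell and none of the other markers was called. The part of these markers in the Plau and Timp2 differences was not tested. Fewer cells of a type and less RNA per cell cannot be told apart in such bulk libraries.

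**Figure D2:**
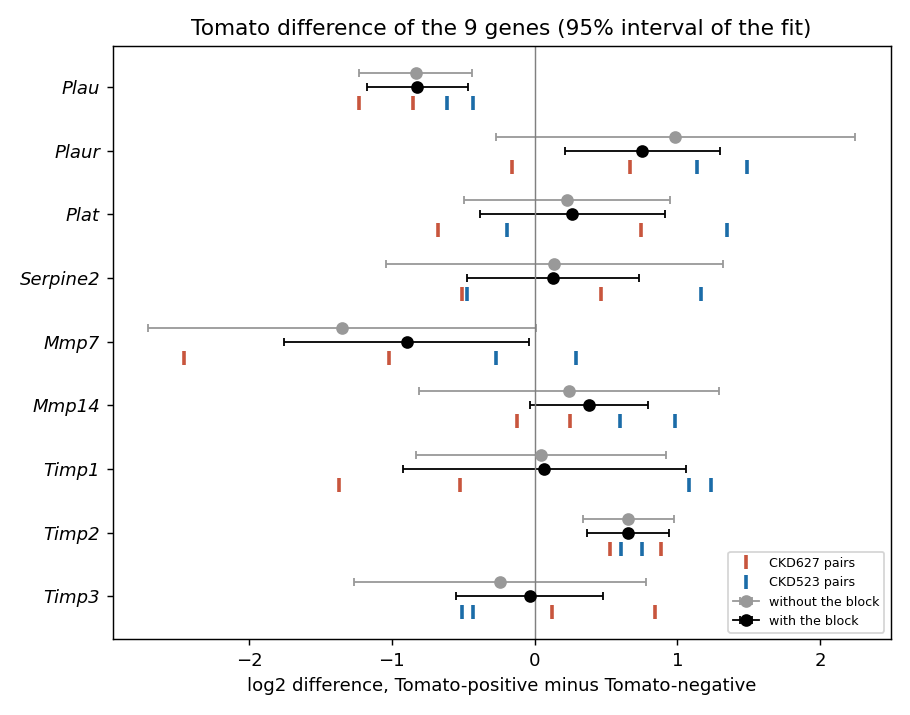
Log2 differences, Tomato-positive minus Tomato-negative, of the 9 genes in the unpaired (grey) and paired (black) fits with 95% intervals, and of the CPM in each single pair (ticks). Of the paired intervals, those of Plau (-1.17 to -0.47), Timp2 (0.36 to 0.94), Plaur (0.21 to 1.30) and Mmp7 (-1.75 to -0.04) leave out 0, and only Plau and Timp2 passed after adjustment.

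Plaur, the urokinase receptor, showed the reverse order of its ligand in the CKD523 pairs. The gene lies on chromosome 7 (24462484 to 24475968, plus strand), just after the promoter letters given above. The Tomato-positive libraries CKD627_1, CKD627_2, CKD523_2 and CKD523_3 held 42.1, 52.3, 183 and 192 CPM, and their partners 47.0, 32.9, 83.2 and 68.6 CPM. The CKD523 Tomato-positive libraries stood above all others, the Tomato groups overlapped, and 3 of 4 pairs were higher. The paired log2 difference of 0.76 ± 0.24 did not pass (SE, edgeR adjusted p = 0.0921, 0.387 unpaired), and was 1.06 with an adjusted p of 0.00584 without pair CKD627_1.

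Within 1 library, the number of Plau reads per Plaur read does not depend on scaling. It was 11.2, 7.90, 2.68 and 2.56 in the Tomato-positive libraries CKD627_1, CKD627_2, CKD523_2 and CKD523_3, and 23.4, 22.7, 7.96 and 11.0 in their Tomato-negative partners. The ratio was thus lower in the Tomato-positive library of all 4 pairs, with groups that overlapped across prefixes. This ratio was chosen after the values were seen and is given without a test. Plau CPM alone was also lower in all 4 pairs, so the ratio adds no separate support.

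**Figure D3:**
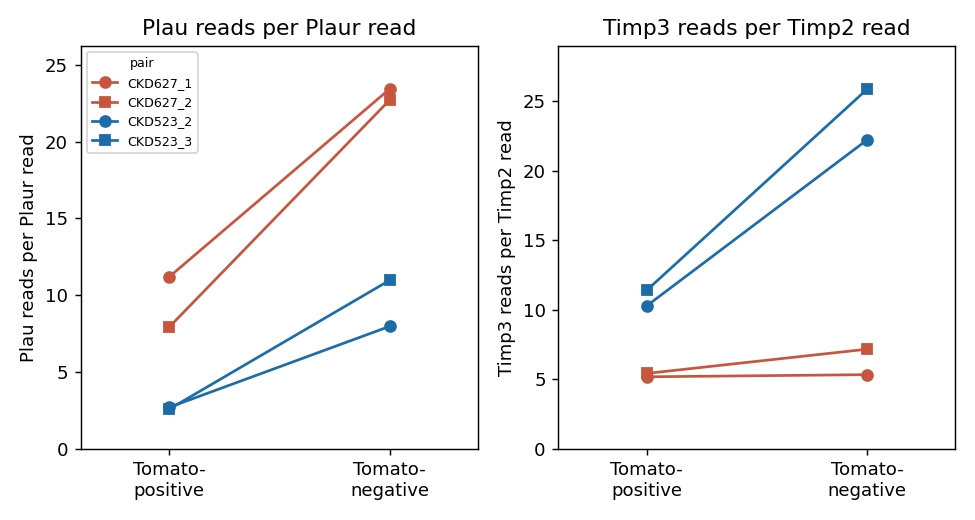
Plau reads per Plaur read (left) and Timp3 reads per Timp2 read (right) in each library, on linear axes from 0, with Tomato-positive left of Tomato-negative and lines joining pairs. Both ratios were lower in the Tomato-positive library of every pair, by little for Timp3 per Timp2 in CKD627_1 (5.17 against 5.33). Neither ratio was planned or tested. Plau alone was already lower and Timp2 alone already higher in all 4 pairs, so the ratios add no separate support.

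Plat and Serpine2 showed no common direction over the pairs. Plat, the tissue-type activator (chromosome 8, 22757727 to 22782844, plus strand), held 239, 171, 112 and 229 CPM in the Tomato-positive libraries and 143, 273, 128 and 90.0 CPM in their partners. Serpine2 (chromosome 1, 79794197 to 79861180, minus strand) held 67.7, 40.9, 11.9 and 34.7 CPM in the Tomato-positive libraries and 49.0, 58.1, 16.5 and 15.5 CPM in their partners. Both genes were higher in the pairs CKD627_1 and CKD523_3 and lower in CKD627_2 and CKD523_2. The paired log2 differences were 0.27 ± 0.29 for Plat (95% interval -0.39 to 0.92, edgeR adjusted p = 0.611) and 0.13 ± 0.26 for Serpine2 (-0.47 to 0.73, adjusted p = 0.812). A 2-fold mean change lay outside both intervals of this paired fit. In the single pair CKD523_3 the Tomato-positive level was 2.55 times that of its partner for Plat and 2.24 times for Serpine2.

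Mmp7, matrilysin, a small metalloproteinase made by epithelial cells, had its highest levels in the Tomato-negative libraries of prefix CKD627. The gene (chromosome 9, 7692090 to 7699585, plus strand) held 41.3, 43.9, 20.3 and 39.8 CPM in the Tomato-positive libraries and 227, 89.1, 24.6 and 32.6 CPM in their partners. The groups overlapped, and 3 of 4 pairs were lower, by 2.46 on the log2 scale in CKD627_1. An antisense transcript, AV064505, shares 123 exon bases with Mmp7 and had 5 counts over all libraries. The paired log2 difference of -0.90 ± 0.38 did not pass (SE, edgeR adjusted p = 0.182, 0.281 unpaired). Without pair CKD627_1 it was -0.38 and without CKD523_3 it was -1.30.

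Mmp14, the membrane-anchored metalloproteinase that activates pro-MMP2, lies on chromosome 14 (54431612 to 54445364, plus strand). Its levels were 163, 168, 84.2 and 67.0 CPM in the Tomato-positive libraries and 178, 142, 42.7 and 44.2 CPM in their partners. All 4 CKD627 libraries stood above all 4 CKD523 libraries, the Tomato groups overlapped, and 3 of 4 pairs were higher. The paired log2 difference was 0.38 ± 0.18 (SE, 95% interval -0.03 to 0.79, edgeR adjusted p = 0.231, 0.826 unpaired). Mmp14 reads per Mmp7 read, a ratio also chosen after the values were seen, were 3.95, 3.82, 4.14 and 1.68 in the Tomato-positive libraries and 0.782, 1.59, 1.74 and 1.35 in their partners.

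Timp1, a soluble inhibitor that blocks Mmp14 only weakly, was the gene with the fewest counts among the 9, between 81 and 257 per library. It held 6.10, 8.80, 13.6 and 12.5 CPM in the Tomato-positive libraries and 15.8, 12.6, 5.77 and 5.91 CPM in their partners. Both CKD627 pairs were lower and both CKD523 pairs higher, and the paired log2 difference was 0.07 ± 0.44 (SE, 95% interval -0.92 to 1.06, edgeR adjusted p = 0.944). Timp1 lies on chromosome X (20870166 to 20874735, plus strand) and overlaps Syn1 on the other strand, which shares 0 exon bases with it and had 46 counts over all libraries.

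Timp3, which binds to the matrix and also inhibits ADAM17, ran the other way. It held 1129, 1086, 1561 and 1824 CPM in the Tomato-positive libraries and 630.1, 999, 2217 and 2457 CPM in their partners. Both CKD627 pairs were higher and both CKD523 pairs lower, with a paired log2 difference of -0.04 ± 0.23 (95% interval -0.55 to 0.48, edgeR adjusted p = 0.944). The gene lies on chromosome 10 (86300372 to 86349506, plus strand), and 1733 bases of its exons overlap exons of Syn3 on the other strand. Syn3 had 1224 counts over all libraries, against at least 10246 for Timp3 in each.

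Such a reversal, with both pairs of 1 prefix one way and both of the other prefix the other way, was found for 2 of the 9 genes and for 14% of all genes. The test of the difference itself, CKD627 minus CKD523, gave -2.01 ± 0.45 for Timp1 (SE, edgeR adjusted p = 0.179), 0.98 ± 0.28 for Timp3 (0.233), -1.89 ± 0.56 for Mmp7 (0.238), -0.995 ± 0.291 for Plaur (0.234) and -0.68 ± 0.25 for Mmp14 (0.311) on the log2 scale. Of the 9 genes 0 were called, against 0.014% of all genes in edgeR. These 5 had an unadjusted p below 0.05 (13.2% of all genes), DESeq2 called 2 of the 9, Mmp7 and Timp3 (1.96% of all genes), and limma-voom called 0. With the pairing 0 were called as well (0.14% of all genes), with 5 of 9 at an unadjusted p below 0.05 (13.8% of all genes). Without the Tomato-negative library CKD627_2, 6 of the 9 passed (10.6% of all genes), and with no filter on low counts 4 passed (3.17%).

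Differences within the prefixes were taken from the edgeR fit of the prefix and Tomato terms without the identifier block. Plau fell by 1.07 ± 0.19 in CKD627 (edgeR adjusted p = 0.0148) and its log2 difference was -0.60 ± 0.19 in CKD523 (0.0844). Timp2 rose by 0.69 ± 0.15 in CKD627 (adjusted p = 0.0284) and by 0.61 ± 0.15 in CKD523 (0.0336). Mmp7 fell by 1.90 ± 0.40 in CKD627 (adjusted p = 0.0262), with a difference of 0.00 in CKD523. Plaur's difference was 0.24 in CKD627 (adjusted p = 0.497) and it rose by 1.23 ± 0.21 in CKD523 (0.00549), and Mmp14's was 0.05 in CKD627 (0.894) and it rose by 0.73 ± 0.18 in CKD523 (0.0336). In each prefix 3 of the 9 genes were called, against 6.22% of all genes in CKD627 and 7.95% in CKD523. Not called were Timp1 (-0.93 ± 0.32 in CKD627, adjusted p = 0.0992, and 1.09 ± 0.32 in CKD523, 0.0667), Timp3 (0.44 ± 0.20, 0.191, and -0.54 ± 0.20, 0.141), Plat and Serpine2. These values rest on 2 pairs per prefix, whose pairing this fit did not use, with the spread shared by all 8 libraries. Of the 3 most abundant proximal tubule markers, Slc34a1 (0.25 in CKD627, -0.57 in CKD523) ran the way of Timp3 in every pair. Aqp1 (0.06, -1.43) had the signs of Timp3 in the fit only, as its CKD627_2 pair was lower (648 against 796 CPM). Kap lay at -2.64 and -3.50. Of the 3 most abundant markers of the injured proximal tubule, Clu (-0.26, 0.83) had the signs of Timp1 in the fit only. Its CKD627_2 pair was higher (6706 against 6494 CPM). Lcn2 lay at 0.45 and 1.41, and Spp1 at -0.66 and -0.05. The part of such markers in the reversals was not tested.

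Between the prefixes, with the Tomato group as a covariate, 5 of the 9 genes were called, 3 higher and 2 lower, against 21.1% of all genes (9.66% higher, 11.4% lower in CKD627). Each prefix held 2 identifiers of 2 libraries, and this fit treated all 8 libraries as independent, so its p-values are too small where libraries of 1 identifier are alike. Mmp14 held 142 to 178 CPM in CKD627 and 42.7 to 84.2 CPM in CKD523 libraries (log2 difference 1.35 ± 0.17, SE, edgeR adjusted p = 3.73e-04). Serpine2 held 40.9 to 67.7 CPM in CKD627 and 11.9 to 34.7 CPM in CKD523 (1.33 ± 0.29, adjusted p = 0.00718). Mmp7 was also higher in CKD627 (41.3 to 227 CPM, against 20.3 to 39.8 CPM in CKD523, 1.34 ± 0.42, adjusted p = 0.0436). Its call was lost without 1 of 4 libraries: Tomato-negative CKD627_2 (adjusted p = 0.0599), Tomato-positive CKD523_2 (0.0870), Tomato-negative CKD523_2 (0.159) or Tomato-negative CKD523_3 (0.162). DESeq2 did not call it (adjusted p = 0.0567), and without Tomato-negative CKD627_1 the log2 difference was 0.83.

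Plaur and Timp3 were lower in CKD627 libraries. Plaur held 32.9 to 52.3 CPM in CKD627 and 68.6 to 192 CPM in CKD523 (-1.61 ± 0.22, edgeR adjusted p = 5.47e-04), and Timp3 held 630.1 to 1129 CPM in CKD627 and 1561 to 2457 CPM in CKD523 (-1.22 ± 0.21, adjusted p = 0.00227). All 5 of these genes had prefixes that did not overlap, as did 22.1% of all genes (14.9% higher, 7.2% lower in CKD627). Plau (-0.03 ± 0.16, adjusted p = 0.912), Plat (0.45 ± 0.27, 0.281), Timp1 (0.09 ± 0.39, 0.911) and Timp2 (0.27 ± 0.11, 0.120) did not pass.

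Cell type markers differed between the same libraries. Of 12 endothelial markers 10 were higher in CKD627 (summed 587 to 1091 CPM, against 99.1 to 412 CPM in CKD523), as were 4 of 10 tested fibroblast and pericyte markers (383 to 532 and 113 to 229 CPM). Of 7 loop of Henle markers 6 were higher and 1 was lower (5893 to 15004 and 1803 to 4305 CPM), and of 8 principal cell markers 7 were higher (1749 to 5648 and 217 to 1969 CPM). Of 12 proximal tubule markers 10 were lower in CKD627 (4077 to 7527 and 10016 to 23541 CPM). Of 7 intercalated cell markers 6 were higher, of 7 distal convoluted tubule markers 2 were higher, and of 7 podocyte markers 0 were called. Of 10 markers of the injured proximal tubule 1 was higher and 2 were lower, and of 9 tested macrophage and leukocyte markers 2 were higher and 1 was lower. The part of these markers in the prefix differences of the 5 genes was not tested.

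**Figure D4:**
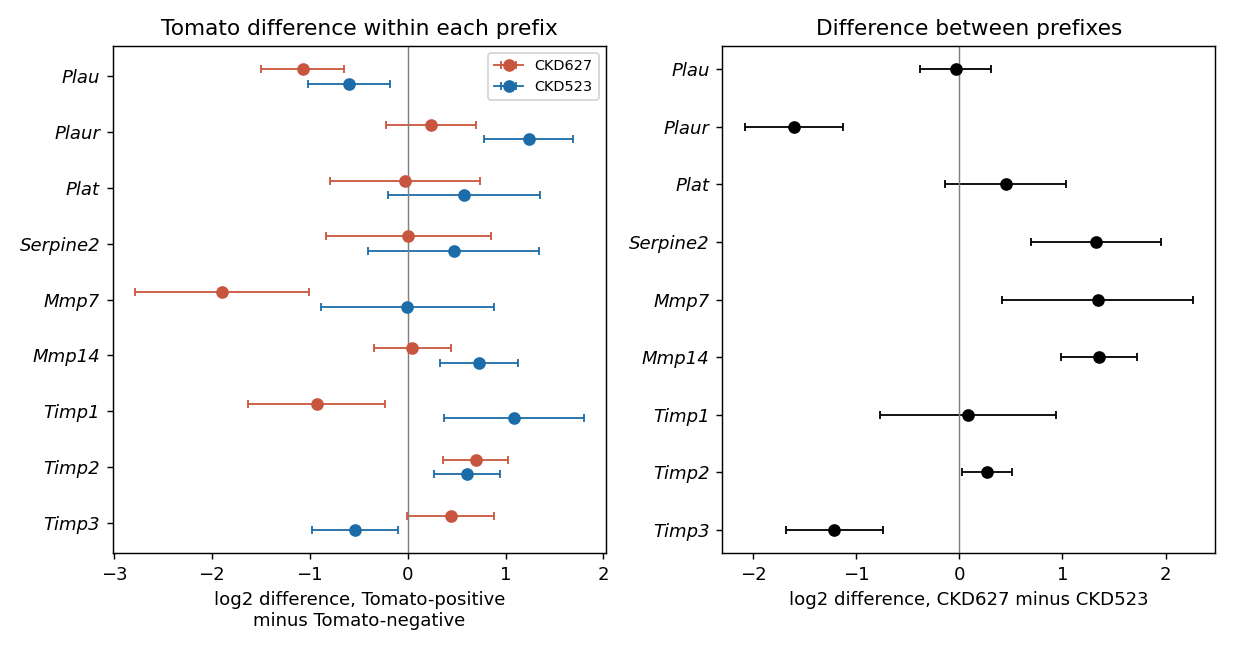
Log2 differences of the 9 genes with 95% intervals. The left panel gives Tomato-positive minus Tomato-negative within CKD627 (red) and CKD523 (blue), where Timp2 lay at 0.69 and 0.61 and Timp1 at -0.93 and 1.09. The right panel gives CKD627 minus CKD523 over both Tomato groups, with Serpine2, Mmp7 and Mmp14 above 0 and Plaur and Timp3 below it.

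Genes that work with these 9 were taken from lists chosen for their roles. Over the 9 genes themselves the median paired log2 difference was 0.13, against 0.01 over all tested genes. Of 16 genes of plasminogen, its receptors and other serpins 11 were tested, with a median of 0.01. Of these 1 fell and none rose in the paired edgeR fit, which called 7.62% of all genes (2 at an unadjusted p below 0.05, against 24.99% of all genes). It was Serpinf2, the gene of the plasmin inhibitor alpha-2-antiplasmin, at 73.8 ± 26.2 CPM in Tomato-positive and 146 ± 86.6 CPM in Tomato-negative cells (SD, n = 4 each, paired log2 -0.89 ± 0.19, adjusted p = 0.0267, 0.298 unpaired). Lrp1, a receptor that clears protease and inhibitor complexes, was at 42.9 ± 15.5 and 18.7 ± 8.35 CPM (1.19 ± 0.32, adjusted p = 0.0607). Plg itself, the plasminogen gene, chosen after its values were seen, had 1 count over all 8 libraries.

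Of 21 other matrix metalloproteinases 8 were tested, and 13 had too few counts. None was called in the paired edgeR fit (1 at an unadjusted p below 0.05, median 0.18). That gene, Mmp9, a gelatinase, was at 2.30 ± 2.32 CPM in Tomato-positive and 0.469 ± 0.431 CPM in Tomato-negative cells (2.30 ± 0.89, adjusted p = 0.150). Mmp2, the substrate of Mmp14 with Timp2, was also chosen after its values were seen and was at 5.00 ± 1.11 and 4.58 ± 2.31 CPM (paired log2 0.23 ± 0.42, adjusted p = 0.778). Of 9 other inhibitors and cofactors 8 were tested, with a median of -0.03. Of these 1 fell and none rose, against 7.62% of all genes called (2 at an unadjusted p below 0.05, against 24.99% of all genes). Pcsk6, a proprotein convertase, fell to 5.47 ± 2.44 CPM in Tomato-positive, against 16.2 ± 9.03 CPM in Tomato-negative cells (paired log2 -1.56 ± 0.22, adjusted p = 0.00610, 0.112 unpaired). Bsg, basigin, an inducer of metalloproteinases, was at 478 ± 22.8 and 682 ± 120 CPM and did not pass (-0.54 ± 0.15, adjusted p = 0.0669).

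Of 33 ADAM, ADAMTS and astacin proteases 24 were tested. In the paired fit 3 rose and 2 fell, against 7.62% of all genes called, with a median of 0.42. At an unadjusted p below 0.05 were 10 of the 24, against 24.99% of all genes. None of the 24 was called in the unpaired edgeR fit. Adam10, a sheddase of the cell surface, was at 220.2, 212, 138 and 161 CPM in the Tomato-positive libraries CKD627_1, CKD627_2, CKD523_2 and CKD523_3, and at 117, 139, 100.1 and 114 CPM in their partners (0.58 ± 0.14, adjusted p = 0.0390, 0.106 unpaired). Adam12 rose as well (18.8 ± 10.8 CPM in Tomato-positive and 8.51 ± 3.28 CPM in Tomato-negative cells, 1.00 ± 0.23, adjusted p = 0.0374, 0.221 unpaired). The third, Adam8, lay outside the rule for names and is given because it completes the 3 (10.3 ± 2.60 and 2.97 ± 1.91 CPM, 1.89 ± 0.45, adjusted p = 0.0391, 0.0851 unpaired). Mep1a, the meprin subunit of the proximal tubule brush border, fell (174 ± 76.7 CPM in Tomato-positive and 436 ± 314 CPM in Tomato-negative cells, -1.13 ± 0.22, adjusted p = 0.0195, 0.268 unpaired), as did its partner gene Mep1b (0.311 ± 0.622 and 4.45 ± 3.11 CPM, adjusted p = 0.0218, 0.199 unpaired, with 3 of the 4 Tomato-positive libraries at 0).

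Of 16 membrane serine proteases and their inhibitors 14 were tested, with a median paired log2 difference of -0.00 over the list. In the paired fit 2 fell and 0 rose, against 7.62% of all genes called (3.81% lower). At an unadjusted p below 0.05 were 5 of the 14, against 24.99% of all genes. Klk1, tissue kallikrein, which is made in the connecting tubule, was at 183, 173, 71.0 and 43.9 CPM in the Tomato-positive libraries and 813, 935, 173 and 214 CPM in their partners (-2.08 ± 0.20, adjusted p = 0.00148, 0.121 unpaired). Hpn, hepsin, which processes uromodulin, was at 188, 227, 322 and 284 CPM in the Tomato-positive libraries and 345, 326, 475 and 496 CPM in their partners (-0.73 ± 0.14, adjusted p = 0.0168, 0.199 unpaired). In the paired fit 3 of 7 distal convoluted tubule, 5 of 7 loop of Henle and 4 of 12 proximal tubule markers were called lower. All 8 principal cell markers were called higher. The part of these markers in the Klk1 and Hpn differences was not tested.

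**Figure D5:**
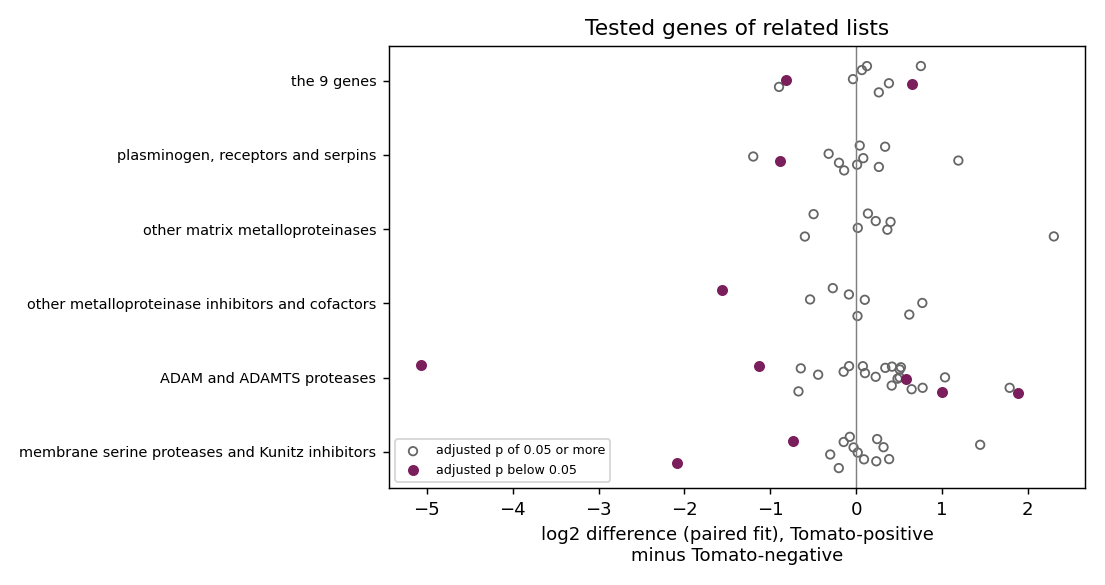
Paired log2 differences, Tomato-positive minus Tomato-negative, of every tested gene of the 9 and of 5 related lists (each point 1 gene, spread vertically for clarity). Filled points passed an adjusted p of 0.05 over all genes, 2 of 9 in the top row, and the point farthest to the left is Mep1b, listed at 0 in 3 Tomato-positive libraries.

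The search for like profiles covered 13230 genes with a mean of at least 1 CPM, without symbols of Gm and digits or ending in Rik. The genes whose profile over the 8 libraries lay closest to those of Plau and Timp2 were found by the root mean square distance of centred log2 CPM. For Plau, whose own spread about its mean was 0.45, these were Ndufb8 and Cox6a1, subunits of respiratory complexes, and Pgk1 of glycolysis, at distances of 0.07, 0.09 and 0.09 on the log2 scale. Ndufb8 held 172, 142, 180.0 and 192 CPM in the Tomato-positive libraries CKD627_1, CKD627_2, CKD523_2 and CKD523_3 and 377, 249, 240.1 and 281 CPM in their partners. For Timp2, with a spread of 0.36, they were the kinase gene Lrrk1 (0.09), the polarity gene Llgl1 (0.09) and the homeobox gene Pbx3 (0.10). The distances describe likeness of profile over libraries that share their depth and scaling, and carry no test.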

How the data were processed

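The authors deposited raw counts per gene symbol for 8 libraries, aligned with subread per the file headers. The submitters' processing notes name mm10, edgeR 3.32.1 and limma 3.46.0. The sources used here do not give the counter, annotation, strand setting or handling of multiply matched reads, so reads of overlapping genes cannot be told apart. Per the labels' protocols, a Norgen single cell kit yielded the total RNA and a NEBNext Ultra kit the libraries.

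Members, lists and tests were chosen with earlier results of these data known. Genes were kept with filterByExpr (count of 10 in 4 libraries, 15 in all), leaving 14284 (56.6%). edgeR 4.0.16 in R 4.3.3 gave TMM factors, the quasi-likelihood test (2-sided) and Benjamini-Hochberg adjusted p-values. The planned main test was unpaired. Libraries of 1 identifier (CKD627_1, CKD627_2, CKD523_2 and CKD523_3) had correlated deviations from their group means (0.33, 0.47, 0.46 and 0.32 across genes). The required value was 0.1, so the identifier was also used as a block. Group means were taken over both prefixes, so the prefix difference stayed in these deviations. The check therefore cannot tell likeness by identifier from likeness by prefix. SE is the log2 difference over the root of F. Separate animals are not stated in the labels, so p-values measure the spread between these libraries. Counts differed between libraries of a group beyond sampling noise (chi-square over its degrees of freedom 15.5 to 191), and each counted as 1 sample. Precision rests on this spread and on the depth given in the text. The unpaired and paired Tomato fits were run on simulated data that held differences between pairs but none between prefixes. Fits with a prefix term were not run on such data. Exon lengths and positions came from GENCODE M21 (GRCm38), promoters from RefSeq (GRCm38.p6).

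Beside the 9 genes, the text names up to 4 genes per related list with the smallest paired p, reporter genes, cell type markers among the 3 most abundant of their list, and the 3 nearest profiles of each called gene. Alternatives were the block, a prefix covariate, single prefixes, other scaling factors and filters, DESeq2 1.42.0, limma-voom (limma 3.58.1), and leaving out each library or pair.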

Additional observations from a re-analysis of the deposited data

Results flagged for a closer look

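Timp1 stood out because both of its CKD627 pairs were lower and both CKD523 pairs higher in Tomato-positive cells. The difference of the log2 differences, CKD627 minus CKD523, was -2.01 ± 0.45 (SE, edgeR adjusted p = 0.179), so the difference was tested and did not pass. Timp3 stood out for the opposite pattern, with 0.98 ± 0.28 (edgeR adjusted p = 0.233). In single pairs the log2 differences of Timp1 were -1.37 and -0.52 in CKD627 and 1.24 and 1.08 in CKD523, and those of Timp3 were 0.84 and 0.12 in CKD627 and -0.51 and -0.43 in CKD523. Of all tested genes 14% had such a reversal. No library of the 18 groups examined for outliers (9 genes, 2 Tomato groups) lay beyond Dixon's limit. Each group held libraries of both prefixes, so a prefix difference widened its range and made the limit harder to reach. For genes that differed between the prefixes this check therefore says little.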

How the results depend on the processing

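Of all 14284 genes 85 were called unpaired, 1089 with the identifier as a replicate block and 1527 with the prefix as a covariate. In prefix CKD523 alone 2236 were called, and in prefix CKD627 alone 347. With no filter on low counts 18695 genes were tested and 45 called. DESeq2 called 1000 of the 14284 genes, and, with the block, DESeq2 called 2026 and limma-voom 1389. Of the 9 genes these fits called 0, 2, 3, 6, 2, 0, 2, 4 and 2. Leaving out a library or pair gave 1 to 29 genes unpaired, and 192 to 1324 genes and 0 to 3 of the 9 with the block. For the difference between prefixes, 0 of the 9 became 4 with no filter, 2 by DESeq2 and 0 to 6 with a library left out. The cause was not tested.

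Signs turned for some genes whose differences did not pass. In CKD627 alone Plat was at -0.050, Serpine2 at -0.018, Timp1 at -0.96 and Timp3 at 0.41 (log2, Tomato-positive minus Tomato-negative), and Timp1 was at -0.023 with upper-quartile factors and -0.013 by limma-voom with the block. With a library or pair left out, the unpaired estimates spanned -0.10 to 0.63 for Plat, -0.23 to 0.47 for Serpine2, -0.0082 to 0.62 for Mmp14, -0.33 to 0.52 for Timp1 and -0.52 to 0.093 for Timp3. The paired ones spanned -0.085 to 0.58 for Plat, -0.20 to 0.34 for Serpine2, -0.33 to 0.55 for Timp1 and -0.31 to 0.13 for Timp3. The Tomato difference of CKD627 minus CKD523 spanned -1.03 to 0.50 for Serpine2 and -0.019 to 0.21 for Timp2, and the prefix difference -0.21 to 0.043 for Plau and -0.20 to 0.44 for Timp1. Depth limits Timp1 most among the 9 genes.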
